A study of Mus musculus with 39 samples.

Results

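Mitochondria are joined and divided by dynamin-related GTPases, and damaged ones are removed by a selective form of autophagy called mitophagy. The expression of 10 genes of this system was followed here in the sciatic nerve of the mouse after a crush injury. The set holds 3 fusion genes (*Mfn1*, *Mfn2* and *Opa1*), 3 fission genes (*Dnm1l*, *Fis1* and *Mff*) and 4 mitophagy genes (*Pink1*, *Bnip3*, *Bnip3l* and *Fundc1*). They were taken by symbol, and each was matched to its Ensembl identifier in the count files. These are 10 of the 55573 genes in the files. All 10 passed the expression filter that left 18442 genes for testing.

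Mitofusins 1 and 2 tether and fuse the outer membranes of neighbouring mitochondria, and OPA1 fuses the inner membranes and shapes the cristae. Fission is carried out by DRP1, the GTPase made from *Dnm1l*, which is brought to the outer membrane by receptors such as MFF, while FIS1 is an outer membrane protein first described in fission. PINK1 is a kinase that builds up on depolarised mitochondria and marks them for removal. BNIP3, NIX (made from *Bnip3l*) and FUNDC1 are outer membrane receptors that bind the autophagy machinery directly and have been linked to hypoxia. In peripheral nerve, mutations of *MFN2* are a common cause of the axonal form of Charcot-Marie-Tooth disease, and Schwann cells change from a myelinating to a repair state after injury and clear their own myelin by autophagy.

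On the build GRCm38, the fusion genes *Mfn1* and *Mfn2* lie at chr3:32529465-32579239 on the plus strand and chr4:147873599-147904704 on the minus strand. *Opa1* lies at chr16:29579334-29654884 on the plus strand and *Dnm1l* on the same chromosome, on the minus strand, at chr16:16312230-16358959. *Fis1* is at chr5:136953275-136966234 and *Mff* at chr1:82724890-82752394, both on the plus strand. The mitophagy genes are all on the minus strand, with *Pink1* at chr4:138313409-138326307, *Bnip3* at chr7:138890836-138909519, *Bnip3l* at chr14:66985239-67008877 and *Fundc1* at chrX:17556564-17572325. All 10 are protein coding.

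How well a gene can be counted from reads of 50 bases depends on how much of its sequence it shares with others. Of the distinct windows of 50 bases in the transcripts of *Bnip3*, 47.2% also occur in transcripts of other genes, and of those of *Bnip3l* 20.8% occur in its pseudogene *Bnip3l-ps*. For the other 8 genes the share was 0 to 4.9%. Values of *Bnip3* and *Bnip3l* are therefore less certain in level than those of the others, since reads in shared stretches may have been dropped or placed elsewhere. Exons of *Dnm1l*, *Mff* and *Bnip3* also overlap genes on the opposite strand, which the library kit could not separate, but the median count of those 3 genes was 0, 2 and 0.

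The sequence just upstream of the start site is shown for 4 genes because they span the responses seen below, from the largest falls (*Bnip3* and *Pink1*) through a fall of similar size at both times (*Opa1*) to the 1 gene that rose (*Fis1*). The sequences are RefSeq promoter windows on GRCm38.p6, read 5′ to 3′ on the strand of the gene and cut where the annotated gene begins. Capitals mark ACGTG or GCGTG, the core of the hypoxia response element, the E-box CACGTG, which contains that core on both strands, and the palindromic core of the NRF1 site, the run of capitals in *Opa1*, each on either strand. The windows lie at chr7:138909520-138909756 for *Bnip3*, chr4:138326308-138326546 for *Pink1*, chr16:29579084-29579333 for *Opa1* and chr5:136953025-136953274 for *Fis1*.
Bnip3: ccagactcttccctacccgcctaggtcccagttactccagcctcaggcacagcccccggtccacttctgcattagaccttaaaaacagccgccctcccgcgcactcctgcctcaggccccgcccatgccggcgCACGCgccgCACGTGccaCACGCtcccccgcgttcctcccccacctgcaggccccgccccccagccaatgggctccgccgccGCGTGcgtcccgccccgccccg
Pink1: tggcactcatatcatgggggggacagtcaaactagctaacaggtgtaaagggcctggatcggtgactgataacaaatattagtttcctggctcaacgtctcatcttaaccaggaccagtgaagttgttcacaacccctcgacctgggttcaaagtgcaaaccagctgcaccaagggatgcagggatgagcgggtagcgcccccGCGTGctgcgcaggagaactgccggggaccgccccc
Opa1: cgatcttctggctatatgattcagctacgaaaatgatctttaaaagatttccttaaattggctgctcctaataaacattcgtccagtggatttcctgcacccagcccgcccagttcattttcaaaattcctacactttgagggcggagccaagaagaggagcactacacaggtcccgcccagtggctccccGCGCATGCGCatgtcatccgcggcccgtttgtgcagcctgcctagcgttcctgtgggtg
Fis1: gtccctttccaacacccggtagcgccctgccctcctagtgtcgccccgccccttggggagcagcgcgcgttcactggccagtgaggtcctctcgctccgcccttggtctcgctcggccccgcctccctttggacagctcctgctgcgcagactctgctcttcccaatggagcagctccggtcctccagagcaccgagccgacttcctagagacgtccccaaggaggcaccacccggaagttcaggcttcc

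The *Bnip3* window held 5 matches to the hypoxia response core, 2 of them within its 1 E-box, and the *Pink1* window held 1. Neither the *Opa1* nor the *Fis1* window held one, and of the motifs in capitals *Opa1* held 1 NRF1 core and *Fis1* none. Over the 250 bases upstream of the start site in all 32851 windows of the table, 38.6% held the core, 6.02% held the E-box and 0.782% held the NRF1 core. Windows were found for 9 of the 10 genes, 14 in all with alternative starts, and 6 of these 14 held the hypoxia response core (*Bnip3*, *Dnm1l*, *Mfn2* and *Pink1*). The estrogen-related receptor elements TCAAGGTCA and TGAAGGTCA and the cyclic AMP response element TGACGTCA were in none of the 14, against 0.697% and 1.55% of all windows, and its shorter form TGACG was in 6 of them, against 17.8%, but these are windows, in part overlapping, of only 3 genes (*Mff*, *Mfn1* and *Mfn2*). No window was used for *Bnip3l*.

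Bulk RNA sequencing was performed on endoneuria, the tissue inside the stripped perineurium, of the distal sciatic nerve. *Lepr*-ctrl mice carried floxed leptin receptor alleles (Leprfl/fl) and no Cre, and *Lepr*-cKO mice carried the same alleles with Dhh-Cre, which is driven by *Dhh* regulatory sequences and acts in Schwann cells from embryonic development on. All mice were on the C57BL/6 background, of both sexes and 2 to 4 months old by the study's methods. One nerve was crushed and the contralateral nerve is called healthy, and nerves were taken 2 or 4 weeks post crush (wpc), from different mice at each time, so that time and cohort cannot be told apart. At 2 wpc there were 5 healthy and 5 injured *Lepr*-ctrl nerves and 6 healthy and 5 injured *Lepr*-cKO nerves, and at 4 wpc 5 healthy and 4 injured nerves of each genotype. These 39 libraries came from 22 mice, 17 of them with both nerves. The study's methods give 4 per group and do not say which of these libraries were used. All 39 were used here.

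Total counts per library were 10905806 to 45016322 with a median of 27752451, with the lowest group medians in injured nerves at 4 wpc. The 10 Schwann cell markers were detected in every library, as were the macrophage, fibroblast and vessel markers. The floxed region of *Lepr* is a small part of the gene, so its total count is no test of recombination, and it did not differ between genotypes (edgeR adjusted p of 0.362 to 1). One library stood apart. In 1 injured *Lepr*-cKO nerve at 2 wpc, called the muscle-containing nerve here, 15 skeletal muscle genes summed to 54700 CPM (normalised read counts, scaled to the library size), against 7.83 to 50.7 CPM in the other 38 libraries, and none of the 15 was at 0. Results that turn on it are also given without it. Since all groups share 1 estimate of the spread in the fit, leaving it out also changed p-values in comparisons that do not contain it.

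Levels of different genes are compared here as CPM per kb of merged exon length. In healthy *Lepr*-ctrl nerves at 2 wpc, *Pink1* was the most abundant of the 10 at 223 ± 13.8 CPM per kb (SD, n = 5). *Fis1* followed with 75.6 ± 9.06, *Bnip3l* with 56.7 ± 6.66 and *Fundc1* with 38.4 ± 4.47 CPM per kb. The ranges of *Pink1*, *Fis1*, *Bnip3l* and *Fundc1* over the 5 nerves did not overlap. *Mfn2* had 20.9 ± 0.817 CPM per kb, above *Dnm1l* with 16.2 ± 1.33 and *Mff* with 14.8 ± 0.506. The ranges of *Dnm1l*, *Mff* and *Opa1* (13.7 ± 1.45 CPM per kb) overlapped one another, as did those of *Opa1* and *Mfn1* (12 ± 0.597 CPM per kb). *Bnip3* was lowest with 4.81 ± 0.501 CPM per kb, at 214 to 470 counts per library. Merged exon length counts alternative exons and long untranslated ends in full, so genes with many of them, such as *Mff*, are placed low.

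**Figure D1:**
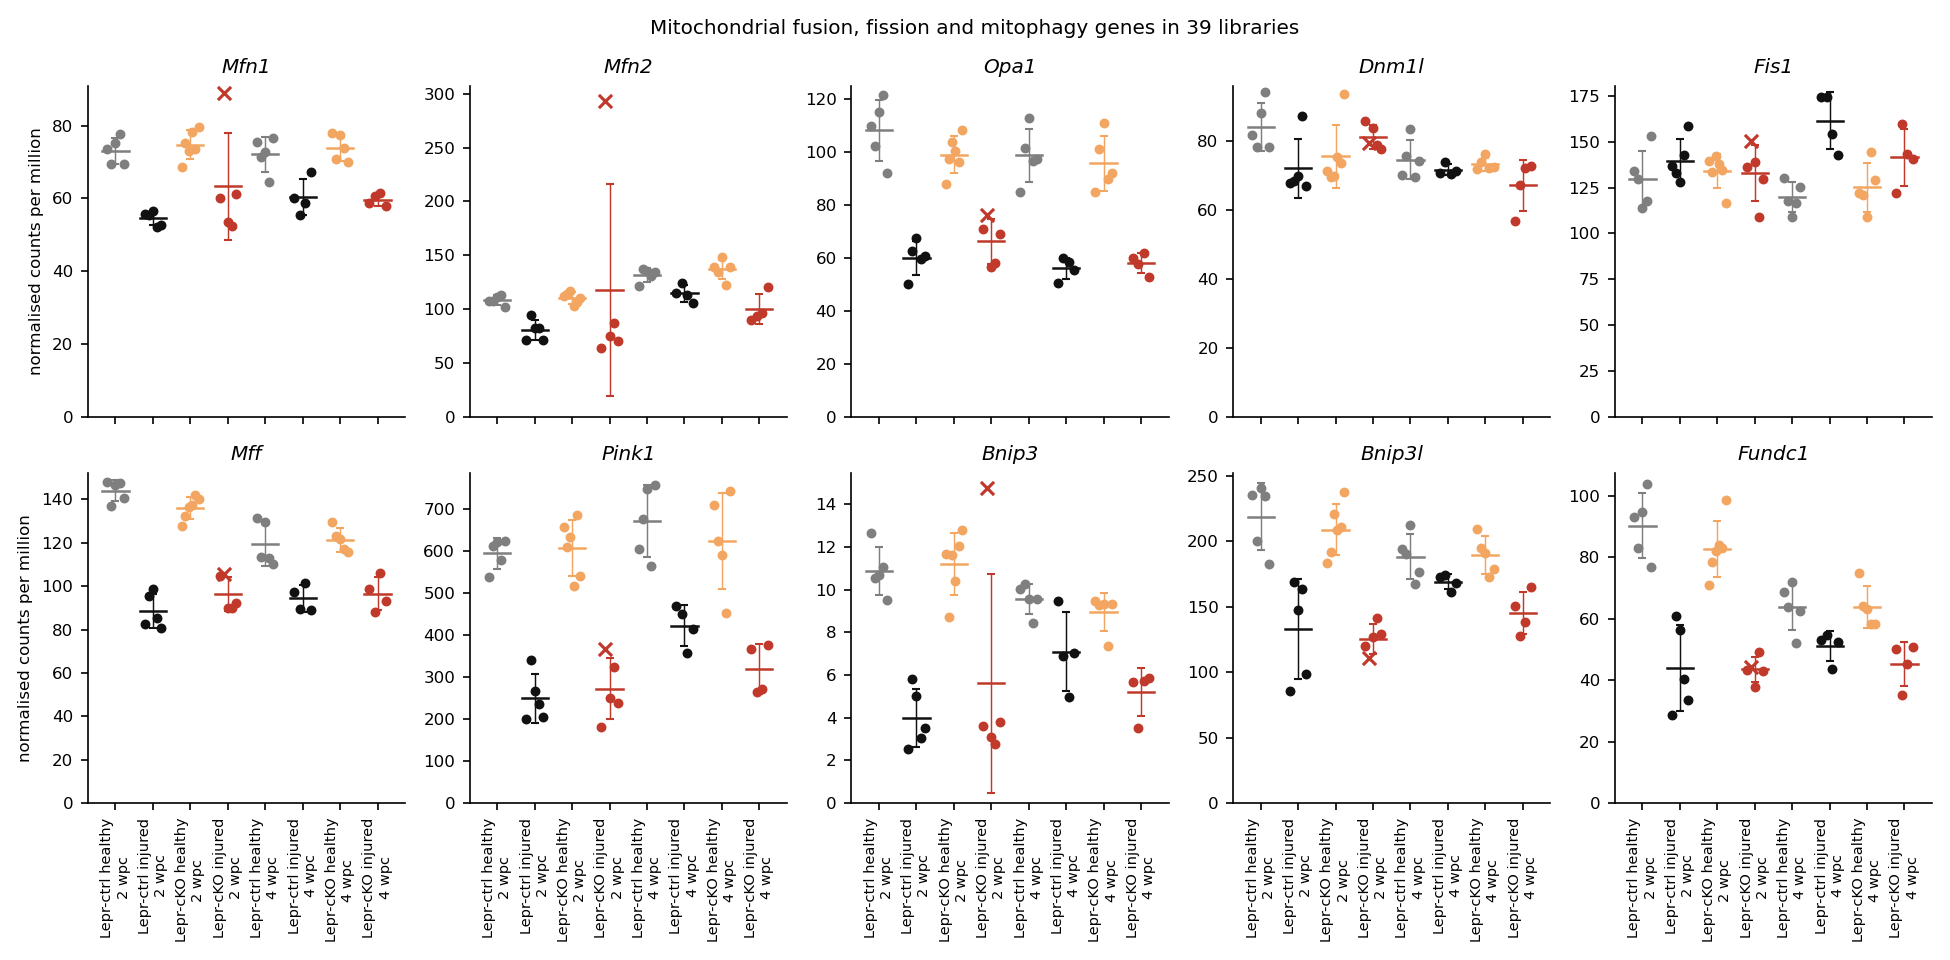
Normalised CPM (vertical axes, linear from 0) of each of the 10 genes in every library, by genotype, nerve and time on the horizontal axes. Points are libraries, horizontal lines group means, error bars SD, and the cross is the muscle-containing nerve. In *Opa1*, *Mff* and *Pink1* injured nerves lie below healthy ones in all 4 comparisons. The matching share of all genes is not given. In *Mfn2* and *Bnip3* the cross, at 294 and 14.8 CPM, is far above its group.

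At 2 wpc, most of the 10 genes were lower in injured than in healthy nerves. In *Lepr*-ctrl mice, 8 of 10 fell and none rose (edgeR quasi-likelihood test, adjusted p under 0.05), against 30.2% of all genes that fell and 33.7% that rose. *Pink1*, *Bnip3* and *Fundc1* fell by more than 2-fold, against 14.3% of all genes. The median log2 fold change was -0.71 over the 10 genes and 0.078 over all genes. In *Lepr*-cKO mice, 7 of 10 fell and none rose, against 29.2% and 35.9% of all genes, with medians of -0.54 and 0.097, and only *Pink1* fell by more than 2-fold, against 13.4%, to which *Bnip3* was added without the muscle-containing nerve. Without the muscle-containing nerve, 9 fell in *Lepr*-ctrl (30.7% of all genes) and 8 in *Lepr*-cKO mice (29.6%). In such bulk samples, fewer cells of a type and less RNA per cell cannot be told apart.

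**Figure D2:**
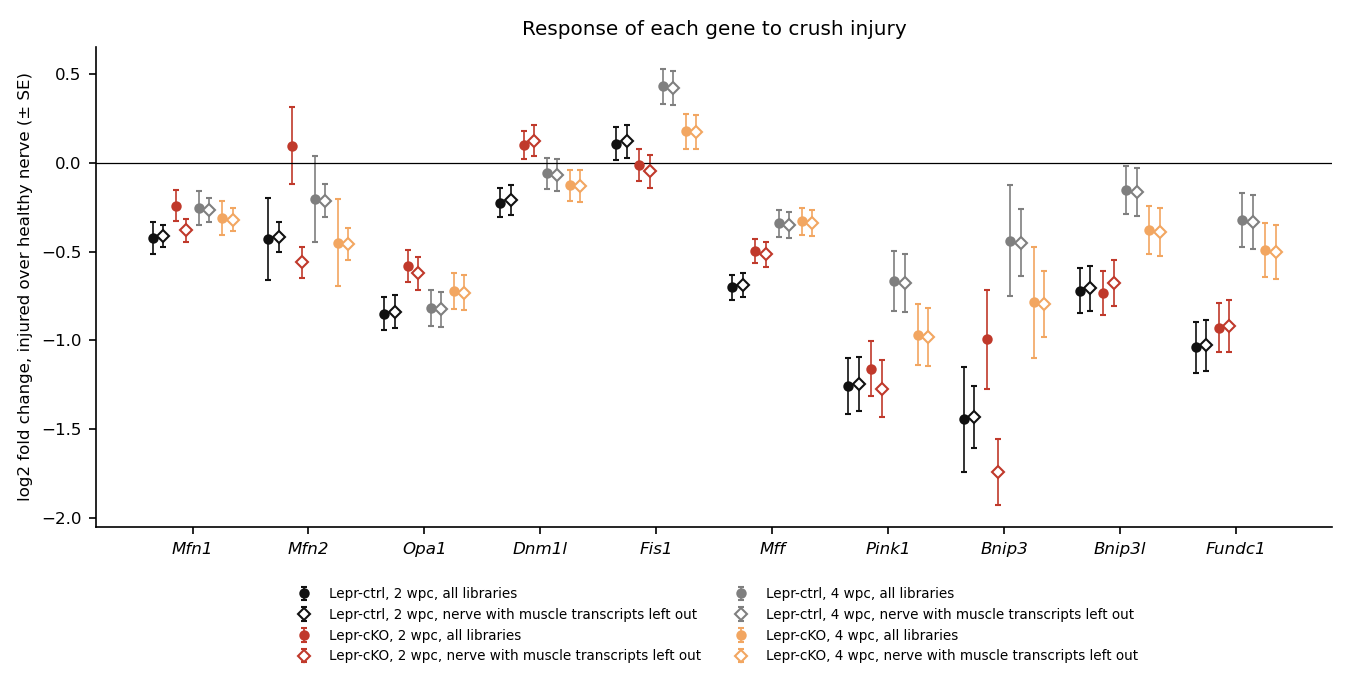
Log2 fold change of injured over healthy nerves for each gene (vertical axis, ± SE from edgeR) in the 4 injury comparisons, with all 39 libraries (filled) and without the muscle-containing nerve (open). *Bnip3* at 2 wpc is lowest, with -1.44 in Lepr-ctrl and, without that nerve, -1.74 in Lepr-cKO mice, *Fis1* at 4 wpc in Lepr-ctrl mice is highest with 0.43, and the open *Mfn2* and *Bnip3* symbols have shorter error bars.

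Among the fusion genes, *Opa1* fell in all 4 injury comparisons. In *Lepr*-ctrl nerves at 2 wpc, *Opa1* had 110, 102, 115, 121 and 91.9 CPM in the healthy nerves and 50, 62.7, 67.6, 59.4 and 60.7 CPM in the injured nerves. In *Lepr*-cKO nerves it had 88.1 to 109 CPM (median 98.8) in the 6 healthy nerves and 71, 76.2, 56.4, 58.2 and 69.2 CPM in the injured nerves, the second of these being the muscle-containing one. Healthy and injured nerves did not overlap in either genotype. Here and for the genes below, the share of all genes without such overlap was not computed. The log2 fold change was -0.85 ± 0.09 (SE, edgeR adjusted p = 1.55e-09) in *Lepr*-ctrl and -0.58 ± 0.09 (adjusted p = 1.09e-06) in *Lepr*-cKO mice. The change was of similar size at 4 wpc, at -0.82 ± 0.10 and -0.72 ± 0.10. There, injured nerves had 50.7 to 59.8 CPM in *Lepr*-ctrl and 52.8 to 61.8 CPM in *Lepr*-cKO mice, below the lowest healthy nerve, which had 84.8 CPM in both genotypes.

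*Mfn1* went the same way. In *Lepr*-ctrl mice at 2 wpc it had 69.4 to 77.6 CPM in healthy and 52.2 to 56.5 CPM in injured nerves, without overlap, a log2 fold change of -0.42 ± 0.09 (edgeR adjusted p = 0.000118). In *Lepr*-cKO mice the injured nerves had 60.2, 88.9, 53.4, 52.5 and 61.3 CPM against 68.6 to 79.7 CPM (median 74.4) in healthy nerves. The muscle-containing nerve, at 88.9 CPM, was above every healthy nerve, and the other 4 were below all of them. The fall was -0.24 ± 0.09 (adjusted p = 0.0146) with that nerve and -0.38 ± 0.06 (adjusted p = 5.01e-06) without it. With it, the call was lost on leaving out any of the other 4 injured nerves (edgeR adjusted p of 0.0586 to 0.124) and under 3 other settings, among them a fit of only the groups compared (0.123). At 4 wpc *Mfn1* fell by 0.26 ± 0.10 on the log2 scale in *Lepr*-ctrl (adjusted p = 0.0198, and 0.064 without 1 injured nerve) and by 0.31 ± 0.10 in *Lepr*-cKO mice (adjusted p = 0.0061).

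The result of *Mfn2* turns on 1 library. In *Lepr*-ctrl mice at 2 wpc it had 107, 108, 111, 113 and 102 CPM in healthy nerves and 71.6, 94.6, 82.8, 81.9 and 71.5 CPM in injured nerves. In *Lepr*-cKO mice it had 102 to 117 CPM (median 111) in healthy nerves, and 64, 294, 74.8, 87.4 and 69.9 CPM in injured nerves. The 294 CPM are those of the muscle-containing nerve, while in every other injured nerve of both genotypes *Mfn2* was below all healthy nerves of its genotype. With all libraries, *Mfn2* passed the test in none of the 4 injury comparisons, with log2 fold changes of -0.43 ± 0.23 (edgeR adjusted p = 0.0994) in *Lepr*-ctrl and 0.10 ± 0.22 (adjusted p = 0.709) in *Lepr*-cKO nerves at 2 wpc. Without the muscle-containing nerve, it fell in all 4, by 0.42 ± 0.09 in *Lepr*-ctrl (adjusted p = 8e-05) and 0.56 ± 0.09 in *Lepr*-cKO mice (adjusted p = 1.58e-06) at 2 wpc. At 4 wpc the falls without that library were 0.21 ± 0.09 (adjusted p = 0.0419) and 0.46 ± 0.09 (adjusted p = 8.14e-05), with *Lepr*-ctrl nerves at 121 to 137 CPM healthy and 105.6 to 124.6 CPM injured, which overlap, and *Lepr*-cKO nerves at 122.6 to 148 and 90 to 121 CPM, which do not.

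**Figure D3:**
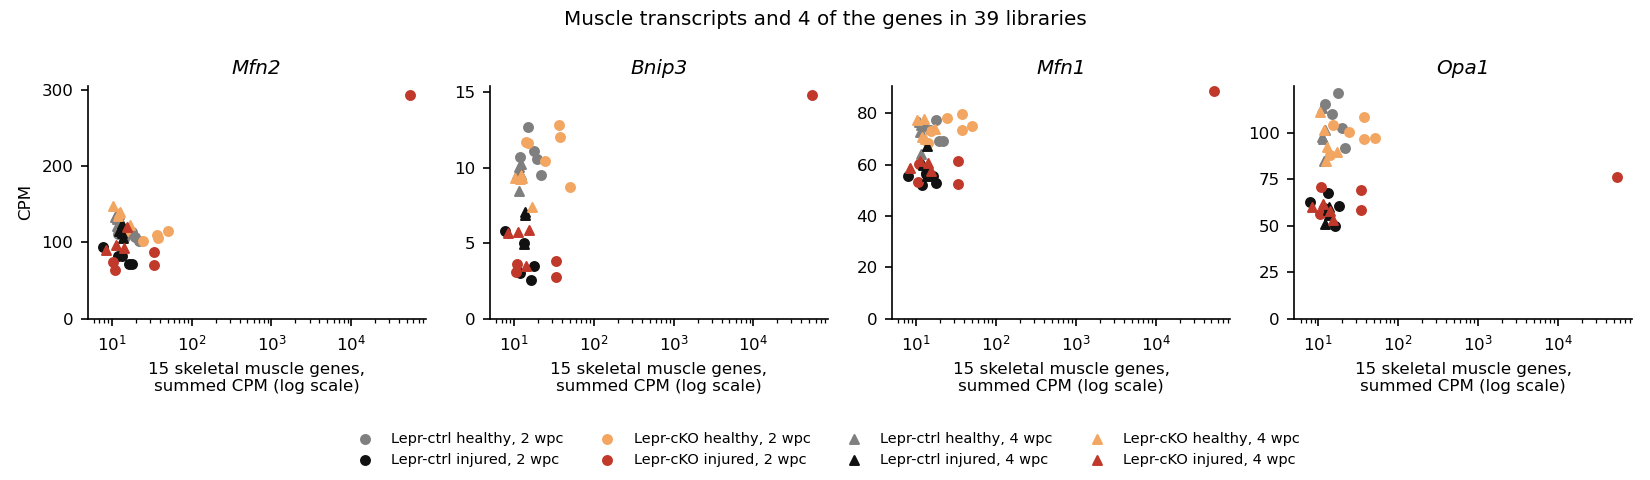
CPM of *Mfn2*, *Bnip3*, *Mfn1* and *Opa1* (vertical axes, linear from 0) against the summed CPM of 15 skeletal muscle genes (horizontal axes, log scale) in the 39 libraries, coloured by genotype and nerve, with circles for 2 wpc and triangles for 4 wpc. The lone circle on the right, at 54700 CPM of muscle genes, is the muscle-containing nerve, with more *Mfn2*, *Bnip3* and *Mfn1* than any other library but an *Opa1* level (76.2 CPM) between the other injured nerves and the healthy ones.

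In the muscle-containing nerve, 12 genes of mitochondrial content (import pores, voltage-dependent channels, citrate synthase and the like) summed to 3030 CPM, against 1060 to 1360 CPM in the other 38, and 6 adipocyte genes summed to 916 CPM against 0.341 to 282. Its Schwann cell sum of 31600 CPM lay within the 17900 to 51400 CPM of its group. *Fundc1* (44.2 CPM) was within the range of the 4 other injured *Lepr*-cKO nerves, *Mff* (105.4 CPM) was just above their highest value of 104.7 CPM, and *Bnip3l* (111 CPM) was below theirs of 120 to 142 CPM. How much of each value came from muscle was not tested.

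Of the fission genes, *Mff* fell in all 4 comparisons, *Dnm1l* changed little and *Fis1* was the only one of the 10 to rise in any. *Mff* had 148.2, 136.8, 146.5, 147.5 and 140.8 CPM in healthy and 82.4, 95.4, 98.7, 85.4 and 80.9 CPM in injured *Lepr*-ctrl nerves at 2 wpc. In *Lepr*-cKO mice the range was 127.8 to 141.9 CPM (median 137) in healthy nerves, and injured nerves had 105, 105, 89.8, 90.1 and 92.1 CPM. The groups were far apart in both genotypes, with log2 fold changes of -0.70 ± 0.07 (edgeR adjusted p = 2.02e-10) and -0.50 ± 0.07 (adjusted p = 1.11e-07). At 4 wpc the falls were 0.34 ± 0.08 (adjusted p = 0.000207) and 0.33 ± 0.08 (adjusted p = 0.000406).

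*Dnm1l* had 78.3 to 94.2 CPM in healthy and 67.8, 68.6, 69.8, 87.3 and 67 CPM in injured *Lepr*-ctrl nerves at 2 wpc. All but the one at 87.3 CPM were below the healthy nerves, and the log2 fold change was -0.22 ± 0.08 (edgeR adjusted p = 0.0174). The call was lost on leaving out either of 2 healthy or any of 3 injured nerves, at adjusted p of 0.055 to 0.0948, and in a fit of only the groups compared (0.0736). Among *Lepr*-cKO mice the injured nerves, at 77.9 to 86 CPM, were all above 5 of the 6 healthy nerves, which ran from 69.6 to 93.9 CPM, and the log2 fold change of 0.10 ± 0.08 did not pass the test (adjusted p = 0.251). At 4 wpc the log2 fold changes were -0.06 ± 0.09 (adjusted p = 0.569) and -0.12 ± 0.09 (adjusted p = 0.226).

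*Fis1* rose in *Lepr*-ctrl nerves at 4 wpc. There it had 130, 117.8, 108.9, 116.8 and 125.4 CPM in healthy and 174.5, 174.3, 154 and 143 CPM in injured nerves, without overlap, a log2 fold change of 0.43 ± 0.10 (edgeR adjusted p = 0.00029). In *Lepr*-cKO nerves at 4 wpc it had 109 to 145 CPM in healthy and 122, 160, 143 and 141 CPM in injured nerves, which overlap, with 0.18 ± 0.10 (adjusted p = 0.124, and 0.0458 without 1 injured nerve). At 2 wpc the log2 fold changes were 0.11 ± 0.09 (adjusted p = 0.31) in *Lepr*-ctrl and -0.01 ± 0.09 (adjusted p = 0.913) in *Lepr*-cKO mice. The response of *Fis1* at 4 wpc in *Lepr*-cKO minus that in *Lepr*-ctrl mice was -0.25 ± 0.14 on the log2 scale and did not pass the edgeR test (adjusted p = 0.506), nor did the difference between 4 and 2 wpc in *Lepr*-ctrl mice (0.32 ± 0.14, adjusted p = 0.13).

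The 3 falls of more than 2-fold in *Lepr*-ctrl mice at 2 wpc were all in mitophagy genes. *Pink1* had 538, 612, 622, 580 and 625 CPM in healthy and 200, 341, 266, 235 and 204 CPM in injured *Lepr*-ctrl nerves at 2 wpc. The *Lepr*-cKO mice had 517 to 686 CPM (median 622) in healthy and 181, 366, 251, 324 and 239 CPM in injured nerves. Every injured nerve was below every healthy one, and the muscle-containing nerve, at 366 CPM, was the highest of the injured nerves. The log2 fold changes were -1.26 ± 0.16 (edgeR adjusted p = 2.52e-08) and -1.16 ± 0.15 (adjusted p = 6.39e-08). At 4 wpc *Pink1* was at 358 to 468 CPM in injured *Lepr*-ctrl and 264 to 376 CPM in injured *Lepr*-cKO nerves, again below all healthy nerves, at 565 to 759 and 452 to 743 CPM, with log2 fold changes of -0.67 ± 0.17 (adjusted p = 0.000929) and -0.97 ± 0.17 (adjusted p = 1.34e-05).

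*Bnip3* had 12.6, 10.5, 10.7, 11.1 and 9.52 CPM in healthy and 2.55, 5.8, 5.03, 3.04 and 3.52 CPM in injured *Lepr*-ctrl nerves at 2 wpc, the last at 64 to 180 counts per library. In *Lepr*-cKO mice it had 8.72 to 12.8 CPM (median 11.7) in healthy and 3.63, 14.8, 3.08, 2.75 and 3.79 CPM in injured nerves. The 14.8 CPM of the muscle-containing nerve exceeded all 38 other libraries, and the other injured nerves were all below the healthy ones. *Bnip3* fell by 1.44 ± 0.29 on the log2 scale in *Lepr*-ctrl (edgeR adjusted p = 6.54e-05) and by 0.99 ± 0.28 in *Lepr*-cKO mice (adjusted p = 0.00228), with -1.74 ± 0.19 in the latter without the muscle-containing nerve (adjusted p = 8.13e-10). At 4 wpc the log2 fold changes were -0.44 ± 0.31 (adjusted p = 0.22) and -0.78 ± 0.31 (adjusted p = 0.0328), and the second was lost on leaving out any of 3 healthy nerves or 1 injured nerve (0.0501 to 0.113). Without the muscle-containing nerve both passed the test (-0.45 ± 0.19, adjusted p = 0.0348, and -0.80 ± 0.19, adjusted p = 0.000518).

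*Bnip3l* and *Fundc1* fell at 2 wpc in both genotypes. *Fundc1* had 93.2, 83, 94.6, 104 and 76.9 CPM in healthy and 28.6, 60.7, 56.4, 40.4 and 33.6 CPM in injured *Lepr*-ctrl nerves, and 70.8 to 98.7 CPM (median 82.5) and 43.4, 44.2, 37.9, 49.3 and 42.8 CPM in *Lepr*-cKO nerves. *Bnip3l* had 183 to 241 CPM in healthy and 85.9, 168.4, 147.2, 163.8 and 98.7 CPM in injured *Lepr*-ctrl nerves, and 183 to 237 CPM and 111 to 142 CPM in *Lepr*-cKO nerves. Neither gene overlapped between healthy and injured nerves at this time. The log2 fold changes were -1.04 ± 0.14 (edgeR adjusted p = 1.12e-07) and -0.93 ± 0.14 (adjusted p = 4.42e-07) for *Fundc1* and -0.72 ± 0.13 (adjusted p = 8.54e-06) and -0.73 ± 0.12 (adjusted p = 3.44e-06) for *Bnip3l*. At 4 wpc, both fell in *Lepr*-cKO mice, by 0.49 ± 0.15 (adjusted p = 0.00626) and 0.38 ± 0.14 (adjusted p = 0.0169), the latter lost without 1 injured nerve (adjusted p = 0.0563), and in *Lepr*-ctrl mice neither passed the test, with -0.32 ± 0.15 (adjusted p = 0.0615) for *Fundc1*, called under 3 alternatives (0.0258 to 0.037, 1 of them leaving out a healthy nerve), and -0.15 ± 0.13 (adjusted p = 0.323).

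At 4 wpc, 4 of the 10 genes fell and 1 rose in *Lepr*-ctrl mice, against 31.2% and 32.4% of all genes, with medians of -0.29 over the 10 and 0.024 over all. None of the 10 fell by more than 2-fold, against 15.9% of all genes. In *Lepr*-cKO mice 7 fell and none rose, against 25.8% and 29.6%, with medians of -0.42 and 0.057, and again none fell by more than 2-fold, against 10.8%. Without the muscle-containing nerve, the counts of falls were 6 in *Lepr*-ctrl mice, beside 32.3% of all genes, and 8 in *Lepr*-cKO mice, beside 27.1%.

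Both nerves were sequenced in 17 mice, which gives a within-mouse difference. *Opa1*, *Mff*, *Pink1*, *Bnip3l* and *Fundc1* were lower in the injured nerve in 17 of 17 mice, with median differences of -0.81, -0.48, -0.95, -0.56 and -0.71 log2 CPM. *Mfn1*, *Mfn2* and *Bnip3* were lower in 16 of 17, the exception each time being the mouse of the muscle-containing nerve. *Dnm1l* was lower in 11 of 17, and *Fis1* was higher in 13 of 17, with a median difference of 0.15 log2 CPM. No within-mouse share of all genes is given beside these counts. By the edgeR test, 20.1% of all genes and 4 of the 10 fell in all 4 injury comparisons. The mouse of the muscle-containing nerve was far from the rest in *Mfn2*, since it differed by 1.36 log2 CPM, where the other mice had -0.81 to -0.02.

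**Figure D4:**
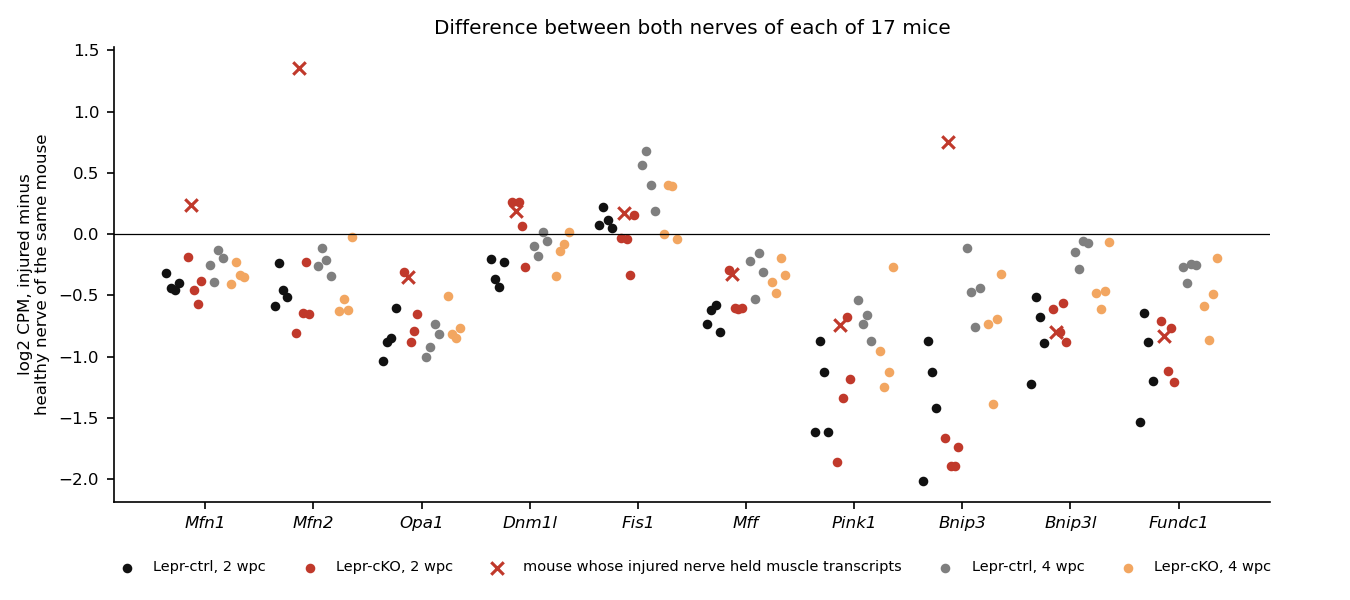
Log2 CPM of the injured minus the healthy nerve of the same mouse (vertical axis) for the 10 genes in 17 mice, coloured by genotype and time, with the mouse of the muscle-containing nerve as a cross. Points lie below 0 in 17 of 17 mice for *Opa1*, *Mff*, *Pink1*, *Bnip3l* and *Fundc1*, and the cross is the only point above 0 for *Mfn1*, *Mfn2* and *Bnip3*. The matching share of all genes is not given.

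The change with injury was smaller at 4 than at 2 wpc for 3 genes in *Lepr*-ctrl mice. The difference of the responses was 0.36 ± 0.10 on the log2 scale for *Mff* (edgeR adjusted p = 0.023), 0.57 ± 0.18 for *Bnip3l* (adjusted p = 0.047) and 0.72 ± 0.21 for *Fundc1* (adjusted p = 0.0243), which makes 3 of 10 against 9.1% of all genes in either direction. The healthy nerves of the different mice also differed in level, with *Fundc1* at 90.3 ± 10.5 CPM (SD, n = 5) at 2 wpc and 63.8 ± 7.58 CPM (n = 5) at 4 wpc and *Mff* at 137 to 148 and 110 to 132 CPM. Leaving out 1 library at a time gave 0 to 4 called genes in this comparison, and with the animal as a replicate block *Mff* was not called (adjusted p = 0.0588). None of the 10 differed between times in *Lepr*-cKO mice, against 2.09% of all genes. Without the muscle-containing nerve, *Bnip3* was called in both genotypes, with differences of 0.98 ± 0.25 (adjusted p = 0.0106) and 0.94 ± 0.26 (adjusted p = 0.0325), *Bnip3l* was not (adjusted p = 0.0515 in *Lepr*-ctrl), and 10.6% and 3.39% of all genes were called.

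None of the 10 genes passed the edgeR test between *Lepr*-cKO and *Lepr*-ctrl mice. In injured nerves 0 of 10 were called at 2 wpc, against 0.58% of all genes, and 0 of 10 at 4 wpc, against 1.31%. In healthy nerves it was 0 of 10 at both times, against 0.0108% and 0.00542% of all genes. At an unadjusted p under 0.05, 3 of the 10 passed in injured nerves at 2 wpc (*Mfn1*, *Mfn2* and *Dnm1l*), 1 at 4 wpc (*Pink1*) and none in healthy nerves, and DESeq2 called none of them. Over all 18442 genes, 1187 passed that limit in injured nerves at 2 wpc and 3667 at 4 wpc. Without the muscle-containing nerve 1 and 3 of the 10 genes did, against 939 and 3895 of 18394 genes. In injured nerves at 2 wpc 107 genes were called with the muscle-containing nerve and 1 gene without it.

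The largest genotype differences were those of *Mfn2* and *Bnip3* in injured nerves at 2 wpc, at 0.55 ± 0.23 (edgeR adjusted p = 0.614) and 0.49 ± 0.29 (adjusted p = 0.88) on the log2 scale. Both rest on the muscle-containing nerve, without which the differences were -0.12 ± 0.09 (adjusted p = 0.942) and -0.26 ± 0.19 (adjusted p = 0.942) by edgeR, and mean *Mfn2* was 74 ± 9.95 CPM (SD, n = 4) in *Lepr*-cKO and 80.5 ± 9.57 CPM (n = 5) in *Lepr*-ctrl nerves. At 4 wpc, *Pink1* was at 319 ± 60.3 CPM (n = 4) in injured *Lepr*-cKO and 423 ± 48.6 CPM (n = 4) in injured *Lepr*-ctrl nerves, a difference of -0.41 ± 0.18 (adjusted p = 0.193). The ranges, 264 to 376 and 358 to 468 CPM, overlapped. *Bnip3* in the same groups differed by -0.44 ± 0.33 (edgeR adjusted p = 0.472). Without the muscle-containing nerve this was -0.45 ± 0.20 (adjusted p = 0.183), then the largest genotype difference of the 10 genes. In that fit 8 of the 10 differences in injured nerves at 4 wpc were negative and none was called, against 8745 negative ones over 18394 genes.

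The response to injury also passed no test of a difference between genotypes for any of the 10, at 2 or at 4 wpc. No gene of the 18442 passed that edgeR test at either time (0% of all genes at 2 wpc and 0% at 4 wpc). At an unadjusted p under 0.05, 797 genes passed at 2 wpc and 2013 at 4 wpc, and DESeq2 called 2 and 3. Without the muscle-containing nerve, 1 of the 10 genes had an unadjusted p under 0.05 at 2 wpc, against 774 of 18394 genes. With all libraries, 3 of the 10 did at 2 wpc (*Opa1*, *Dnm1l* and *Mff*) and none at 4 wpc. The largest of these 3 differences was in *Dnm1l* at 2 wpc, at 0.33 ± 0.11 (edgeR adjusted p = 0.909), where the log2 fold change was -0.22 for the *Lepr*-ctrl and 0.10 for the *Lepr*-cKO genotype.

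The 10 genes did not vary as one. Over the 38 libraries without the muscle-containing nerve, log2 CPM of *Bnip3l* and *Fundc1* had a Pearson r of 0.933, *Mff* and *Fundc1* 0.916, and *Pink1* and *Bnip3* 0.909. *Fis1* went against the others, with r of -0.566 to *Opa1* and -0.414 to *Mfn1*. When each library was taken relative to its group mean, which removes the effect of injury, time and genotype, *Bnip3l* and *Fundc1* still had r = 0.861, *Bnip3* and *Fundc1* 0.734 and *Mfn2* and *Pink1* 0.703. *Fis1* and *Fundc1* had -0.492. The points share libraries and the scaling by library size, so these are descriptions. The joint spread can be read in the 5 injured *Lepr*-ctrl nerves at 2 wpc, where the same 2 nerves were lowest in *Pink1*, *Bnip3l* and *Fundc1*, and 1 other nerve was highest in *Pink1*, *Bnip3*, *Bnip3l* and *Fundc1*. The Schwann cell sum was 37500 and 52700 CPM in the former, 24900 CPM in the latter, and 38120 and 11440 CPM in the other two.

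The genes most like each of the 10 over all 39 libraries, by Pearson r of log2 CPM among genes with a mean above 1, were *Foxo4* for *Pink1* (r = 0.973), *Zbtb38* for *Opa1* (0.961), *Arpp19* for *Fundc1* (0.96), *St13* for *Mff* (0.957) and *Mtpn* for *Bnip3l* (0.947). *Bnip3* was closest to *Smoc1* (0.933), *Mfn2* to *Synpo2* (0.927) and *Mfn1* to *Klhdc1* (0.922). *Fis1* and *Dnm1l* had the weakest partners, *Cox8a* (0.869), a subunit of cytochrome c oxidase, and *Fcho2* (0.756). Without the muscle-containing nerve, *Foxo4*, *Arpp19*, *Cox8a* and *Fcho2* kept their place, whereas the closest gene to *Mfn2* became *Zbtb4* (0.946), to *Bnip3* *Mxi1* (0.954) and to *Opa1* *Akap11* (0.978).

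Other genes of the same system moved in both directions. As a background for their counts, 25.8% to 31.2% of all genes fell and 29.6% to 35.9% rose in each injury comparison, and 20.1% fell and 21.6% rose in all 4. Of 10 further fusion and cristae genes, 6 fell and 1 rose in *Lepr*-ctrl mice at 2 wpc, with 4 and 2 in *Lepr*-cKO nerves, 5 and 2 in *Lepr*-ctrl at 4 wpc and 4 and 1 in *Lepr*-cKO at 4 wpc. The *Lepr*-cKO counts at 2 wpc were 7 and 1 without the muscle-containing nerve. Those that fell in all 4 comparisons were *Miga1* and *Miga2*, the mitoguardins that promote fusion, and *Chchd6*, a subunit of the cristae-organising complex MICOS. *Chchd6* fell by 1.18 ± 0.15 in *Lepr*-ctrl and 1.24 ± 0.15 in *Lepr*-cKO nerves at 2 wpc (edgeR adjusted p = 3.51e-08 and 5.77e-09). Of 8 genes that process or hold OPA1, *Clpb* and *Yme1l1* fell in all 4, and *Parl* and *Phb2*, an inner membrane protease and a prohibitin, rose in all 4, with *Clpb* at -1.23 ± 0.18 and *Phb2* at 0.56 ± 0.09 in *Lepr*-ctrl mice at 2 wpc.

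The further fission genes moved both ways, with 25% rising and 16.7% falling in all 4 comparisons, near the shares of all genes. Of 12, 4 rose and 2 fell in *Lepr*-ctrl and 5 rose and 4 fell in *Lepr*-cKO nerves at 2 wpc, and 4 rose and 3 fell in each genotype at 4 wpc. The *Lepr*-cKO counts at 2 wpc were 4 and 4 without the muscle-containing nerve. *Rab32*, a GTPase linked to mitochondrial division, rose in all 4 (1.55 ± 0.16, 1.51 ± 0.15, 1.29 ± 0.17 and 1.16 ± 0.17, with edgeR adjusted p of 3.55e-10 to 5.28e-07). *Mief2*, an adaptor that recruits DRP1, rose by 1.31 ± 0.23 and 1.41 ± 0.22 at 2 wpc and 0.86 ± 0.24 and 0.95 ± 0.24 at 4 wpc, and *Mtfp1* also rose in all 4. *Spire1*, an actin nucleator whose mitochondrial form acts in division, fell in all 4 (-1.68 ± 0.16 and -1.70 ± 0.16 at 2 wpc), and *Mtfr1* also fell in all 4.

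Among 16 mitophagy adaptors and regulators, 8 fell and 3 rose in *Lepr*-ctrl and 7 fell and 3 rose in *Lepr*-cKO nerves at 2 wpc, and 6 and 4 and 7 and 4 at 4 wpc. Without the muscle-containing nerve, 9 fell and 4 rose in *Lepr*-cKO nerves at 2 wpc. *Optn*, an adaptor that links ubiquitin on mitochondria to the autophagosome, fell most, by 1.36 ± 0.11 and 1.28 ± 0.10 at 2 wpc (edgeR adjusted p = 5.66e-13 and 1.08e-12), followed by *Nbr1* and *Calcoco1*. *Tomm7*, which stabilises PINK1 at the outer membrane, rose in all 4, by 1.30 ± 0.15 in *Lepr*-ctrl mice at 4 wpc, as did *Tbk1*, the kinase of the adaptors. In the ubiquitin list of 10 genes, 6 fell and 3 rose in *Lepr*-ctrl mice at 2 wpc, 5 and 3 in *Lepr*-cKO mice, and 4 and 2 and 4 and 3 at 4 wpc. Leaving out the muscle-containing nerve gave 6 and 3 in *Lepr*-cKO mice at 2 wpc. *Mul1* and *Huwe1* fell and *Vcp* and *March5* rose in all 4. The shares that fell and rose in all 4 were 25% and 12.5% of the mitophagy list and 20% and 20% of the ubiquitin list, against 20.1% and 21.6% of all genes.

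Of 8 genes that move mitochondria along microtubules, 4 fell in each of the 4 comparisons, and 3, 2, 3 and 2 rose, the 2 in *Lepr*-cKO mice at 2 wpc being 1 without the muscle-containing nerve. *Rhot1*, the outer membrane GTPase Miro1 that anchors mitochondria to their motors, fell by 1.93 ± 0.14 and 1.84 ± 0.13 at 2 wpc and by 0.94 ± 0.14 and 0.73 ± 0.14 at 4 wpc (edgeR adjusted p = 5.28e-14, 7e-14, 7.81e-07 and 5.64e-05), more than any of the 10 genes at 2 wpc. *Kif5b* and *Trak1*, the kinesin motor and its adaptor, fell in all 4 as well, and in all 4 together 50% of this short list fell and 25% rose. Of the 12 genes of mitochondrial content, 2 fell in each comparison (*Tomm20* and *Vdac2* in all 4), and 3, 5, 5 and 3 rose (*Tomm22* and *Slc25a5* in all 4), or 16.7% of the list in each direction in all 4, below the shares of all genes. Without the muscle-containing nerve, 3 of these 12 genes fell in each genotype at 2 wpc, and 3 and 4 rose. Their median log2 fold changes, 0.022, 0.32, 0.11 and 0.22, lay near those of all genes or above, but the 0.32 in *Lepr*-cKO mice at 2 wpc was 0.086 without the muscle-containing nerve, against 0.08 for all genes. In *Lepr*-ctrl mice at 2 wpc their summed level was 1240 to 1360 CPM in healthy and 1060 to 1220 CPM in injured nerves, without overlap. The *Lepr*-cKO mice had 1230 to 1320 CPM and, leaving out the muscle-containing nerve, 1074 to 1213 CPM, also without overlap. For *Lepr*-ctrl mice at 4 wpc it was 1130 to 1290 and 1170 to 1280 CPM. These sums are shares of bulk RNA and measure no protein. From its own analysis of this RNA sequencing, the study reported that genes of oxidative phosphorylation rose as a set in both genotypes at the earlier time. It described *Lepr*-cKO mice as apparently unable to maintain that expression later. That gene set was not tested here, and the sums above do not stand for it. At the protein level, the study reported more respiratory chain protein in injured nerves. It also reported more of a mitochondrial reporter protein in Schwann cells of reporter mice, highest at 2 wpc.

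**Figure D5:**
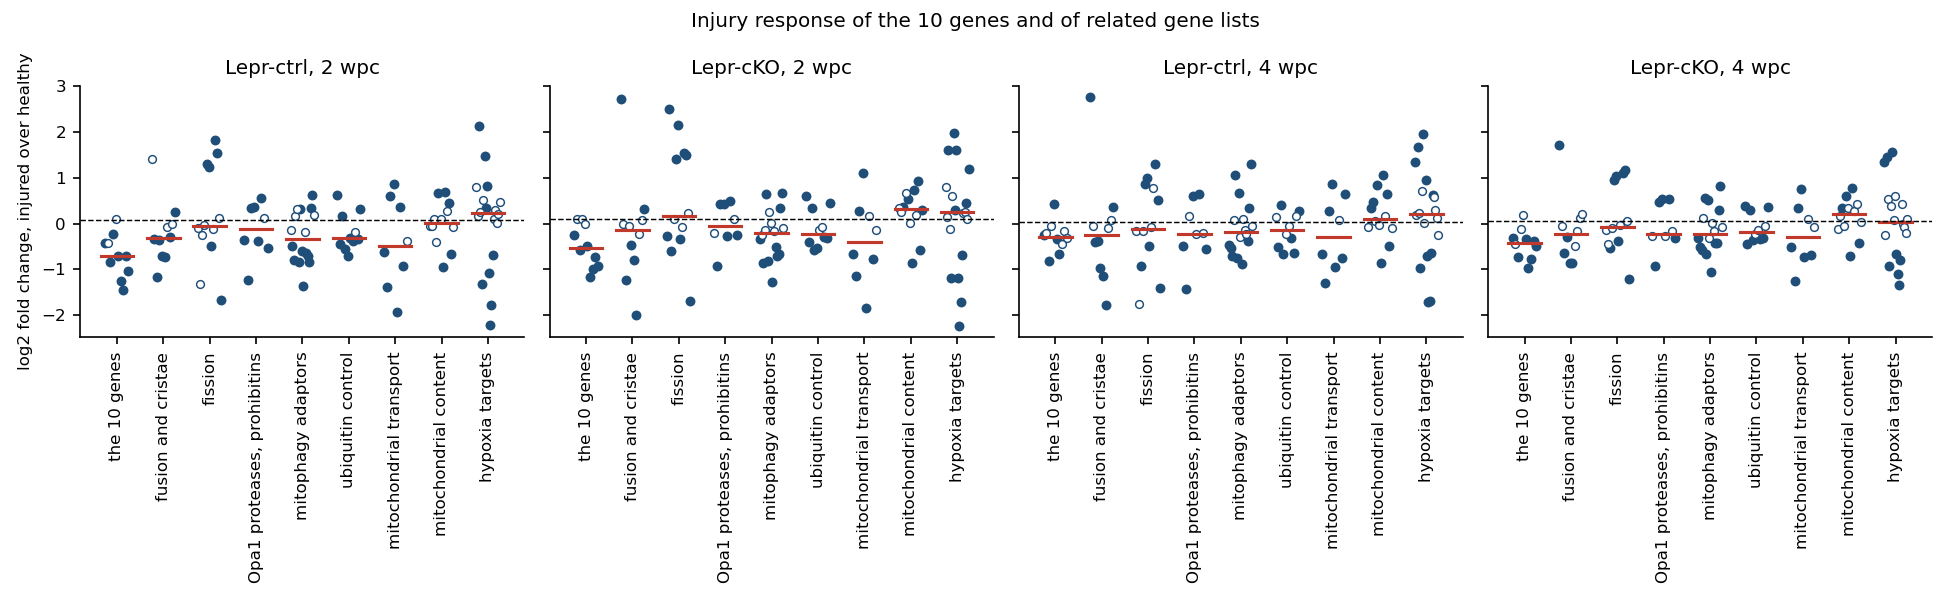
Log2 fold changes of injured over healthy nerves (vertical axis) for the genes of each list in the 4 injury comparisons, 1 panel each. Filled points have an edgeR adjusted p under 0.05, red lines are list medians and the dashed line is the median of all genes; the 10 genes have the lowest median of the lists at 2 wpc, -0.71 and -0.54, and the mitochondrial content list lies near the dashed line or above it, with 0.32 in Lepr-cKO mice at 2 wpc, which was 0.086 without the muscle-containing nerve.

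BNIP3 and NIX are known as targets of hypoxia-inducible factors, so 18 other such targets were set beside them. Their summed level was 4920 to 5210 CPM in healthy and 1360 to 2120 CPM in injured *Lepr*-ctrl nerves at 2 wpc, and 5140 to 5870 and 2300 to 2390 CPM at 4 wpc. By count the list was split. At 2 wpc 5 fell and 4 rose in *Lepr*-ctrl and 5 fell and 6 rose in *Lepr*-cKO nerves, or 6 and 4 rose without the muscle-containing nerve, and at 4 wpc 5 fell in each genotype and 5 and 3 rose. *Ndrg1*, a gene abundant in myelinating Schwann cells, fell most (-2.21 ± 0.19 and -2.23 ± 0.18 at 2 wpc, edgeR adjusted p = 3.56e-12 and 1.6e-12), with *P4ha1* and *Egln1*. *Car9* rose by 2.14 ± 0.34 and 1.60 ± 0.31 at 2 wpc (adjusted p = 1.25e-06 and 2.96e-05), and *Hk2* also rose in all 4. In all 4, 27.8% of the list fell and 11.1% rose, against 20.1% and 21.6% of all genes.

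Summed levels of several cell type markers differed between healthy and injured nerves. Such sums of bulk RNA do not tell cell number from RNA per cell. The 10 Schwann cell genes, mainly of myelin, summed to 93500 to 116000 CPM in healthy and 11400 to 52700 CPM in injured *Lepr*-ctrl nerves at 2 wpc, and to 94100 to 117000 and 17900 to 51400 CPM in *Lepr*-cKO nerves. The 10 macrophage genes summed to 190 to 329 and 1210 to 3420 CPM in *Lepr*-ctrl, and to 159 to 434 and 908 to 2740 CPM in *Lepr*-cKO nerves. The 6 proliferation genes summed to 5.7 to 11.4 CPM in healthy and 78.7 to 201 CPM in injured *Lepr*-ctrl nerves at 2 wpc, and to 9.29 to 31.9 CPM in injured nerves at 4 wpc. The 6 adipocyte genes summed to 0.341 to 0.767 CPM in healthy and 14.7 to 170 CPM in injured *Lepr*-ctrl nerves at 2 wpc. In *Lepr*-cKO nerves they overlapped, at 0.41 to 165 CPM in healthy and 15.9 to 916 CPM in injured nerves, and the healthy nerve at 165 CPM was also the highest of its group in *Dnm1l* and the lowest in *Fis1*. The 10 repair Schwann cell genes were at 242 to 310 CPM in healthy and 592 to 1190 CPM in injured *Lepr*-ctrl nerves at 2 wpc. The part of these shifts in the changes of the 10 genes was not tested. At 4 wpc the Schwann cell sum of injured nerves was still low, at 25500 to 35200 CPM in *Lepr*-ctrl and 31200 to 79400 CPM in *Lepr*-cKO nerves, while macrophage genes stood at 1930 to 4250 and 1320 to 2240 CPM.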

How the data were processed

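RNA was sequenced as single reads of 50 bases from unstranded libraries, and per the labels and the study's methods the authors aligned reads with STAR 2.5 to GRCm38 and counted them per gene with featureCounts 1.5.0-p1. The deposited values are raw counts, 1 file per nerve, and how reads with several matches were counted is not given in the sources used here. Genes were named from GENCODE M21.

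Counts were filtered by group (minimum count 10, total 15), normalized by TMM and tested with edgeR 4.0.16 (quasi-likelihood test, R 4.3.3), with all 39 libraries in 1 fit of 8 group means and Benjamini-Hochberg adjustment over 18442 genes. Changed means an adjusted p under 0.05. CPM are normalised, and log2 CPM use a prior count of 2. The members and lists were chosen with earlier results of these data known. From each list up to 3 genes per direction were named, those with the largest mean change among genes called the same way in all 4 injury comparisons. For each of the 10 genes, likeness named the closest genes among tested genes of mean log2 CPM above 1.

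Animal numbers in the labels pair both nerves of 17 mice. Deviations from group means over 5000 genes had r of -0.116 to 0.567 (median 0.333), above 0.1 in 14 of 17 pairs. The animal as a replicate block was an alternative, as were DESeq2 1.42.0, other normalizations and filters, a sex term, and leaving out libraries. No replicate pair within a group differed by as little as sampling noise. Data were simulated for the injury comparison in Lepr-ctrl mice at 2 wpc (17964 genes). In them 67, 67 and 66 genes were changed by 1.5-fold, 2-fold and 4-fold, of which the edgeR step recovered 34.3%, 62.7% and 89.4%. Of 131 called genes, 7 were unchanged ones. In the real comparison 30.2% of all genes fell and 33.7% rose, so these rates do not carry over to it. One gene of the ubiquitin list is not reported here by name.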

Additional observations from a re-analysis of the deposited data

Results flagged for a closer look

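In 8 of 80 sets of values (10 genes in 8 groups of 4 to 6 nerves), 1 nerve lay far from the others of its group, where chance gives about 1 in 20. One injured *Lepr*-cKO nerve at 2 wpc, the one with muscle transcripts, had 294 CPM of *Mfn2* (others 64 to 87.4) and 14.8 CPM of *Bnip3* (others 2.75 to 3.79). *Dnm1l* was high in 1 injured *Lepr*-ctrl nerve at 2 wpc, with 87.3 CPM against 67 to 69.8. One healthy *Lepr*-cKO nerve at 2 wpc stood apart in both directions, with 93.9 CPM of *Dnm1l* (others 69.6 to 75.3) and 117 CPM of *Fis1* (others 134 to 142). *Bnip3* was low at 7.38 CPM in 1 healthy *Lepr*-cKO nerve at 4 wpc (others 9.27 to 9.48) and at 3.5 CPM in 1 injured *Lepr*-cKO nerve at that time (others 5.69 to 5.87). *Fundc1* was low at 43.8 CPM in 1 injured *Lepr*-ctrl nerve at 4 wpc (others 52.6 to 54.6).

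The injury response differed between 4 and 2 wpc in *Lepr*-ctrl mice by 0.36 for *Mff*, 0.57 for *Bnip3l* and 0.72 for *Fundc1* on the log2 scale (edgeR test of the difference itself). *Mff* was not called with the replicate block (edgeR adjusted p = 0.0588), nor *Bnip3l* without the muscle-containing nerve (adjusted p = 0.0515).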

How the results depend on the processing

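Of 2350 values of the 10 genes recomputed under the alternatives, 2173 kept their direction and their side of the threshold, 97 changed sign without being called in either fit, 62 lost the call, 16 gained it and 2 took the opposite sign and were then called. Those 2 are *Mfn2* with injury in *Lepr*-cKO mice at 2 wpc, which had -0.56 without the muscle-containing nerve, the lower end of a range of -0.56 to 0.285 over the libraries left out in turn, and -0.58 with the replicate block and without both nerves of that mouse, an alternative chosen after seeing the data. Leaving out 1 library at a time gave 7 to 9 called genes in *Lepr*-ctrl and 6 to 8 in *Lepr*-cKO mice at 2 wpc, and 4 to 7 and 5 to 8 at 4 wpc. It gave 0 to 0 in the 6 comparisons that involve genotype. Healthy *Lepr*-cKO nerves at 2 wpc were not left out in turn, so results that use them were not checked against losing any of them. For 4 against 2 wpc it gave 0 to 4 in *Lepr*-ctrl mice, where 11 of 20 such fits moved the count by over 1.5 times, and 0 to 1 in *Lepr*-cKO mice, the 1 (*Bnip3*) without the muscle-containing nerve.

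With a log2 fold change above 1 also required, the injury counts were 3 and 1 at 2 wpc and 0 and 0 at 4 wpc, and that of 4 against 2 wpc in *Lepr*-ctrl mice was 0. That last count was also 0 with no expression filter and 1 (*Bnip3*) in a fit of only the groups compared; the cause was not tested. The replicate block gave 8 and 7 called genes at 2 wpc and 4 and 6 at 4 wpc, losing *Mfn1* in *Lepr*-ctrl (edgeR adjusted p = 0.0503) and *Bnip3* in *Lepr*-cKO mice (adjusted p = 0.0535), and 2 for 4 against 2 wpc in *Lepr*-ctrl mice, losing *Mff* (adjusted p = 0.0588). It changed no other call. With both nerves of that mouse left out as well, 4 against 2 wpc in *Lepr*-cKO mice gave 1 (*Bnip3*). Calls were lost most often for 4 against 2 wpc in *Lepr*-ctrl mice (*Bnip3l* in 18, *Mff* in 12 and *Fundc1* in 9 of 28 alternatives) and, with injury, for *Mfn1* in *Lepr*-cKO mice at 2 wpc (7 of 14), *Dnm1l* in *Lepr*-ctrl mice at 2 wpc (6 of 19) and *Bnip3* in *Lepr*-cKO mice at 4 wpc (6 of 18). *Bnip3* had the lowest counts of the 10 genes, 64 to 523 per library.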
